A study of Mus musculus with 69 samples.

Results

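The lungs of mice that had received 162 µg of the titanium dioxide nanoparticle NRCWE-030 were set directly against the lungs of mice that had received the same dose of a second titanium dioxide nanoparticle, NRCWE-025, without reference to the vehicle controls. The members were chosen by their labels as the 5 arrays of NRCWE-030 and the 5 arrays of NRCWE-025 at this dose on day 1, 10 of the 69 arrays of the series. All were female C57BL/6 mice, 5 to 7 weeks old on arrival and kept for 1 to 3 weeks before exposure. Each mouse received its particles by a single intratracheal instillation in water with 2% serum, and the whole lung was collected 24 h later. The vehicle controls of day 1, 5 mice given the 2% serum in water alone, serve below as a range only and enter no test of the materials. RNA came from a section of each frozen lung, 1 array per mouse, so fewer cells of a type and less RNA per cell cannot be told apart. The names NRCWE-025 and NRCWE-030 are codes, and the sources used here give no structural difference between the materials.

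A large deposit of particles in the lung is met first by resident macrophages and epithelial cells, which release cytokines and chemokines and draw in neutrophils and monocytes. Lung cells then also make acute phase proteins, a set of secreted proteins best known from the liver, of which the serum amyloid A proteins (Saa genes) and the orosomucoids (Orm genes) are the most inducible in mice. Many lung genes in addition follow the circadian clock, a loop in which Arntl and Clock activate the Per and Cry genes, whose products repress Arntl and Clock, so that the level of a clock gene depends on the time of day at which a tissue is taken. The clock time of instillation or dissection is not given in the sources used here.

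Each array compared lung RNA (Cy5) with a pooled mouse reference RNA (Cy3). Values below are log2 lung over reference, a scale on which 1 unit is a doubling, and differences are NRCWE-030 minus NRCWE-025 on that scale. On the 10 arrays 50.0% to 65.2% of spots were well above background in Cy5, and 0 spots were saturated. The surfactant and other alveolar type 2 genes were well above background on all 10 arrays for 15 of 15 measured members, and the endothelial list for 16 of 17. The mean of the heart muscle genes and that of the large-airway genes were highest on NRCWE-030 replicates 1 and 3, and their values are given with the results they touch. Adipoq, the adiponectin of fat cells, was 2.48 and 2.31 on the same replicates and 2.77 on NRCWE-025 replicate 4, and at most 0.26 on the other 7 arrays. The 10 arrays lay on 7 slides scanned on 6 days. Only 3 slides held both materials, with NRCWE-030 replicate 2 beside NRCWE-025 replicate 3, both replicates 4 together and both replicates 5 together. With local backgrounds as deposited, the background mean fitted on NRCWE-025 replicate 5 was extreme, at -137.9 in Cy5 and -651.5 in Cy3. After outlying backgrounds were replaced it was -8.26 and -4.36. NRCWE-025 replicate 2 was also shifted, at -47.17 and -117.9 as deposited and -8.04 and 59.46 after replacement. Outlying backgrounds were therefore replaced on all arrays.

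The direct comparison asked which genes separated the materials at the high dose. No gene did so after correction: limma with Benjamini-Hochberg adjustment over 18664 genes called 0 genes (0% of those tested) at an adjusted p under 0.05, and the smallest adjusted p was 0.281. Without adjustment 1459 genes (7.82%) had p under 0.05, against 933 that evenly spread p-values would give. Of these, 939 (5.03% of genes tested) were higher with NRCWE-030 and 520 (2.79%) were lower. The higher share was thus 64.4%, and it was 49.1% with slide as a fixed block, so the imbalance was not seen there. The share was 53.9% with slide as a fixed block in all arrays of day 1, and 55.1% with scan day as a fixed block. Here and below, unless all arrays of day 1 are named, the slide block rests on the 3 slides that held both materials. It leaves NRCWE-030 replicates 1 and 3 and NRCWE-025 replicates 1 and 2 out of the estimate. A difference above 0 was found for 9614 of the 18664 genes, and the counts of the gene lists below are to be read against these shares. Every NRCWE-030 array lay above every NRCWE-025 array for 180 genes (0.964%) and below for 95 genes (0.509%). The unsigned difference had a median of 0.0812, and the 95% confidence interval of a gene reached a median of 0.21 to either side. For 98.7% of genes the interval lay within a doubling or halving either way. The unsigned difference was over 1 for 23 genes, of which 21 were higher and 2, Cyp26b1 and Alb, were lower with NRCWE-030. For 97.7% of genes the difference was smaller than the range of the 5 vehicle mice.

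**Figure D1:**
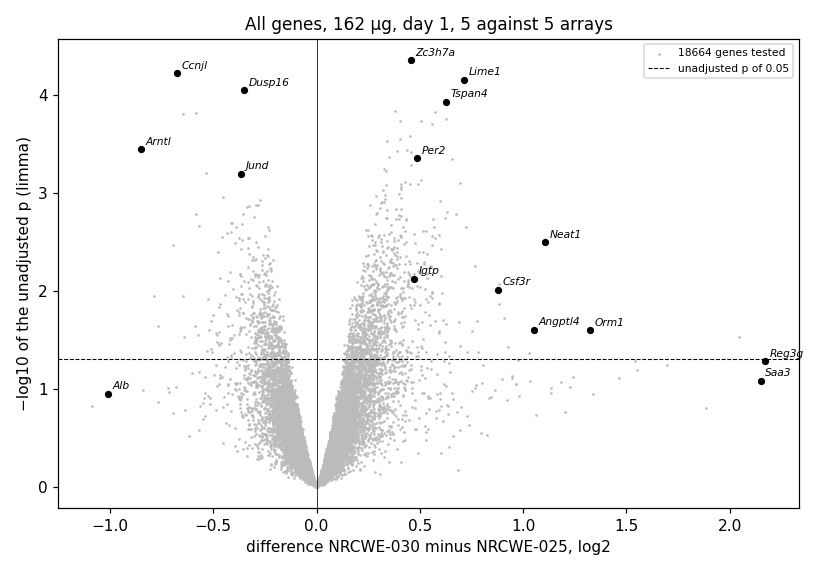
Difference NRCWE-030 minus NRCWE-025 (log2, horizontal axis) against −log10 of limma's unadjusted p (vertical axis) for the 18664 genes tested, each a grey point, with genes described in the text in black and a dashed line at an unadjusted p of 0.05. More points lie above the line on the right (939, 64.4% of them) than on the left (520), and none had an adjusted p below 0.281. With slide as a fixed block, which rests on the slides that held both materials, the share was 49.1%. With slide as a fixed block in all arrays of day 1 it was 53.9%.

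The genes with the smallest p lay close together within each material and differed by less than 1 unit between them. Zc3h7a, which encodes a zinc finger protein, had the smallest p. It was -0.08, 0.16, 0.00, -0.03 and -0.02 on NRCWE-030 replicates 1 to 5, and -0.49, -0.46, -0.32, -0.58 and -0.42 on NRCWE-025 replicates 1 to 5. The groups did not overlap, and the difference was 0.46 ± 0.07 (SE, limma, adjusted p = 0.281). Its 2 probes did not agree in size, at 0.79 and 0.12. Lime1, an adaptor protein of lymphocyte signalling, ran from -0.31 to 0.16 with NRCWE-030 and from -1.04 to -0.56 with NRCWE-025 (difference 0.72 ± 0.12). Ccnjl, a cyclin J-like gene, ran from -1.87 to -1.38 with NRCWE-030 and from -1.05 to -0.89 with NRCWE-025 (difference -0.68 ± 0.11). Dusp16, a phosphatase of MAP kinases, lay between -0.40 and -0.26 with NRCWE-030 and between -0.04 and 0.07 with NRCWE-025, with a difference of -0.35 ± 0.06, and was well above background on 3 of 5 arrays of each material. The other genes of the 10 with the smallest p in the upward direction were Tspan4, Rbbp6, Fam98c, Slc26a11, Eci2, Emid1, Map11 and Golm1, with differences from 0.38 to 0.63. The other 8 in the downward direction were Tmem171, Nrgn, Arntl, H1f2, Jund, Zfp618, Pcdhga9 and Ddx47, with differences from -0.85 to -0.27. All but Arntl of these 16 had groups that did not overlap. The probes of Rbbp6, each well above background on all 10 arrays, did not agree, at 0.37, 0.42 and -0.01. All 20 are named for their rank, which by itself favours a small spread and separated groups, and none was called. Pcdhga9 belongs to a gene cluster whose members share exons, and its probes cannot be tied to it alone with certainty.

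The acute phase genes Saa3, Saa1 and Orm2 had some of the larger differences by size, and these rested on a wide spread among the NRCWE-025 mice. Saa3, the serum amyloid A of macrophages and epithelia, was 5.47, 5.34, 4.63, 3.97 and 4.07 on NRCWE-030 replicates 1 to 5. It was -2.18, 1.88, 2.93, 5.54 and 4.56 on NRCWE-025 replicates 1 to 5. The NRCWE-030 mice were thus all high, while the NRCWE-025 mice ran from the level of the vehicle mice (-3.25 to -1.91) to the highest value of the 10. The difference was 2.15 (95% confidence interval -0.33 to 4.63, limma, adjusted p = 0.671), and 0.969 without NRCWE-025 replicate 1.

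Saa1, a circulating form, lay between 4.05 and 5.24 with NRCWE-030. With NRCWE-025 it was 0.13, 2.58, 2.90, 5.30 and 4.43 for replicates 1 to 5, and the vehicle mice reached 0.13. Saa1 and Saa2 are nearly identical in sequence, as are Orm1, Orm2 and Orm3, so their probes may share signal. Orm1, a plasma carrier protein, lay between 2.40 and 3.54 with NRCWE-030 and was -0.20, 1.38, 1.66, 3.35 and 2.12 with NRCWE-025, a difference of 1.32 (0.19 to 2.45, adjusted p = 0.568). Orm2 lay between 3.52 and 4.83 against -0.14 to 4.94. NRCWE-025 replicate 1 was the lowest of the 10 arrays for each of Saa1, Saa2, Saa3, Orm1 and Orm2, and NRCWE-025 replicate 4 was at or near the top for each. Without replicate 1 the difference fell from 1.55 to 0.818 for Saa1, from 0.922 to 0.313 for Saa2, from 1.54 to 0.872 for Orm2 and from 1.32 to 0.857 for Orm1.

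Lcn2, which sequesters bacterial iron carriers, and Timp1, an inhibitor of matrix metalloproteinases, had the same low array. Lcn2, named after its values were seen, was 0.67 on NRCWE-025 replicate 1, 3.72 to 4.58 on the other NRCWE-025 arrays and 4.40 to 5.39 with NRCWE-030, a difference of 1.24 (-0.15 to 2.64) that was 0.512 without that array. Timp1 was 1.53, 1.37, 0.92, 0.40 and 0.50 with NRCWE-030 and -1.81, -0.84, -0.30, 2.07 and 0.68 with NRCWE-025, where the vehicle mice lay between -2.42 and -2.08. Its groups overlapped over the whole NRCWE-030 range, and its difference of 0.982 was 0.539 without NRCWE-025 replicate 1 and 1.51 without replicate 4.

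Over the acute phase list, 27 of 28 genes were measured and 19 had a difference above 0, with a median of 0.35, where the median over all genes was 0.0042. The list's median was 0.137 without NRCWE-025 replicate 1, 0.196 without NRCWE-030 replicate 1 and up to 0.472 when another array was left out. At an unadjusted p under 0.05, 2 were higher (Orm1 and Orm3) and 1 was lower (Apcs, serum amyloid P, well above background on 1 of the 10 arrays), and 0 were called. Orm3 was well above background on 5 of 5 NRCWE-030 arrays but only on 2 of 5 NRCWE-025 arrays. The mean of the list lay between 1.81 and 2.41 on the NRCWE-030 arrays, between 0.66 and 2.47 on the NRCWE-025 arrays and between 0.57 and 0.99 in the vehicle mice. The standard deviation of a member over 5 arrays had a median of 0.41 with NRCWE-030 and 0.59 with NRCWE-025, against 0.142 and 0.157 over all genes. Within the 3 shared slides the direction was mixed. NRCWE-030 replicate 2 exceeded NRCWE-025 replicate 3 by a median of 0.34 over the list, whereas NRCWE-030 replicate 4 was below NRCWE-025 replicate 4 by a median of -0.51 and the replicate 5 pair stood at -0.10. With slide as a fixed block the median over the list was -0.04. Saa3 itself stood at 2.41, -1.57 and -0.49 within these slides.

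**Figure D2:**
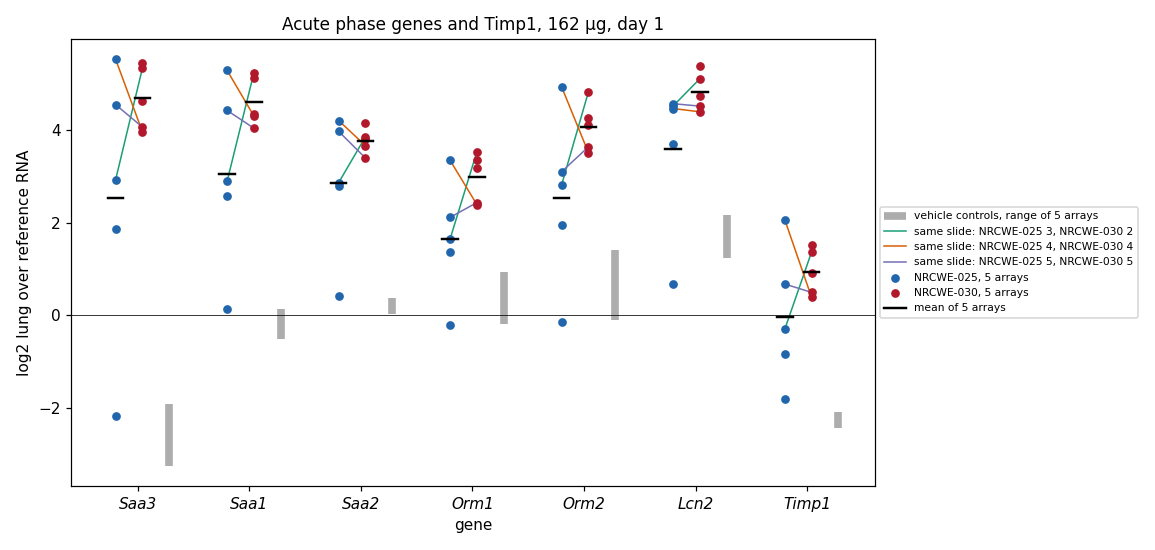
Log2 lung over reference RNA (vertical axis) of 7 genes on each of the 5 NRCWE-025 arrays (blue) and 5 NRCWE-030 arrays (red), with group means as black bars, the range of 5 vehicle mice as grey bars and lines that join arrays of the same slide. The NRCWE-030 points sit together, with Saa3 between 3.97 and 5.47, while the NRCWE-025 points run from the vehicle range upward, with Saa3 between -2.18 and 5.54.

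A pair of liver-type transcripts went the other way and were named after their values were seen. Alb, serum albumin, was 0.17, 1.04, 1.17, 1.80 and 0.23 with NRCWE-030 and 2.02, 0.24, 2.76, 3.70 and 0.72 with NRCWE-025. Fgb, the fibrinogen beta chain and a member of the acute phase list, lay between 0.04 and 0.83 against -0.09 to 2.54. Both were highest on NRCWE-025 replicates 4, 3 and 1, and the groups overlapped. The differences were -1.01 (95% confidence interval -2.29 to 0.28) for Alb and -0.71 (-1.61 to 0.18) for Fgb.

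Interferon-inducible genes leaned upward with NRCWE-030, apart from a single NRCWE-025 mouse. Igtp and Irgm1, GTPases induced by interferon gamma, Gbp2, a guanylate-binding protein, and Oasl2, an oligoadenylate synthetase-like protein, were the members at an unadjusted p under 0.05. Igtp was 1.48, 1.70, 1.66, 1.31 and 1.45 with NRCWE-030 and 0.66, 1.05, 1.02, 1.58 and 0.92 with NRCWE-025, and the vehicle mice lay between 0.70 and 1.13. All NRCWE-030 arrays were above 4 of the 5 NRCWE-025 arrays, and NRCWE-025 replicate 4 lay among them. The difference was 0.47 (0.15 to 0.79, limma, adjusted p = 0.4995). Oasl2 had the same order, from 1.38 to 2.13 with NRCWE-030, 2.17 on NRCWE-025 replicate 4 and 0.39 to 0.85 on its other 4 arrays. The differences of Irgm1 and Gbp2 were 0.42 ± 0.15 and 0.34 ± 0.14 (SE).

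Of 23 interferon genes measured, 22 had a difference above 0, with a median of 0.37, and 4 were higher at an unadjusted p under 0.05, against 5.03% of all genes, with 0 called and 0 without overlap (0.964% of all genes upward). The median was 0.61 without NRCWE-025 replicate 4 and 0.144 with slide as a fixed block. The list mean was 0.63 to 1.29 with NRCWE-030, and 0.13 to 0.48 with NRCWE-025 except for 1.46 on its replicate 4. Within slides the list stood at medians of 0.81 and 0.39 for the pairs with NRCWE-030 replicates 2 and 5, and at -0.80 for the pair of replicates 4.

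Promoters of 3 of these genes are shown for the element through which interferons are known to act. The capitals mark a simple form of the interferon-stimulated element, GAAA, any 2 bases and GAAA again, searched on both strands. In the RefSeq promoters of GRCm38.p6, which run from 250 bases before to 50 after each start, 11 of the 18 interferon genes with a promoter held it, against 3.99% of all 27025 genes. The array design was made on another build, and only names tie the promoters to the arrays. In Irgm1 a pair of overlapping matches forms a single run of capitals. The promoter of Oasl2 in the same table held no match and is not shown. A match is a description of letters and not a measured site.
Igtp, chr11:58199306-58199605, plus strand: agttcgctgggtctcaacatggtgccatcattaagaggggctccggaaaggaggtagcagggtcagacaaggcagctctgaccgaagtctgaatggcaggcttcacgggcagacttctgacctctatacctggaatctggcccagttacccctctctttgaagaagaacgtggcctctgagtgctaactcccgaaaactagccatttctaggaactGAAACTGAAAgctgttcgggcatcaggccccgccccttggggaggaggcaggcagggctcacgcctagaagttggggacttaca
Irgm1, chr11:48871371-48871670, minus strand: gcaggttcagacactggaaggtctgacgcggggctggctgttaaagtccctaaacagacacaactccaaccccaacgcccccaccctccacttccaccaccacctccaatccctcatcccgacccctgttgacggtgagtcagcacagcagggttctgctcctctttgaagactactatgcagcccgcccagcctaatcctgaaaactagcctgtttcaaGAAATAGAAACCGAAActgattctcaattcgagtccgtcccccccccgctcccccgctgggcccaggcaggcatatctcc
Gbp2, chr3:142620413-142620712, plus strand: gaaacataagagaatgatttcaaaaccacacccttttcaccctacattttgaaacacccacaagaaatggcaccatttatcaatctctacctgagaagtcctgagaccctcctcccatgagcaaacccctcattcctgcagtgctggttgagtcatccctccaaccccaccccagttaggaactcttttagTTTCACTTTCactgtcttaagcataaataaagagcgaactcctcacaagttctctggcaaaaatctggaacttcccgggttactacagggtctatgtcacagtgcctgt

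Among the chemokines and the receptors of myeloid cells, few members had an unadjusted p under 0.05. Csf3r, the receptor for granulocyte colony-stimulating factor carried by neutrophils, was 1.87, 2.60, 2.38, 2.39 and 2.14 with NRCWE-030 and 0.71, 1.24, 1.51, 2.55 and 0.99 with NRCWE-025. The NRCWE-030 arrays and NRCWE-025 replicate 4 lay well above the vehicle mice (0.70 to 1.503), and NRCWE-025 replicate 3 lay at their upper end. The difference was 0.88 (0.26 to 1.503, adjusted p = 0.510). Csf2rb2, a receptor subunit for interleukin 3, lay between -0.09 and 0.42 against -0.93 to 0.11 (difference 0.53 ± 0.17). Csf2, the granulocyte-macrophage colony-stimulating factor, had a difference of 0.64 and Csf1, the macrophage factor, of 0.23, each with an interval that reached below 0. In the list of colony-stimulating factors and receptors 10 of 11 differences were above 0 and 2, Csf3r and Csf2rb2, had an unadjusted p under 0.05.

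Among chemokine ligands 20 of 29 differences were above 0 with a median of 0.13, which was -0.17 with slide as a fixed block. Ccl19, which guides lymphocytes and dendritic cells, was higher at an unadjusted p under 0.05 (0.51 ± 0.21) and Cxcl14 lower (-0.23 ± 0.09), but Cxcl14 stood at 0.121 with local backgrounds as deposited. Cxcl9, a chemokine induced by interferon gamma, was 0.88 to 1.67 with NRCWE-030, 1.80 on NRCWE-025 replicate 4 and 0.23 to 0.54 on its other arrays. In the neutrophil list 16 of 23 were above 0 with a median of 0.10, and Csf3r alone had an unadjusted p under 0.05, where 5.03% of all genes were higher at that threshold. Cd177, Clec4e and Clec4d, surface proteins of neutrophils and other myeloid cells, had differences of 0.77, 0.40 and 0.50 with intervals that included 0, and Cd177 stood at -0.11 with slide as a fixed block. For macrophages and monocytes 18 of 28 were above 0 with a median of 0.15. There C1qa, a chain of complement C1q made by macrophages, was higher at an unadjusted p under 0.05 (0.69 ± 0.29). Its lowest array was NRCWE-025 replicate 5, at 1.86 against 3.25 to 3.77 on the other 4. Of the macrophage genes Fcgr3, an immunoglobulin receptor, Ccr2, a monocyte chemokine receptor, and Adgre1, the F4/80 antigen, the differences were 0.46, 0.30 and -0.15 with intervals that included 0. The value of Ccr2 is the median of a probe well above background on all 10 arrays, at 0.59, and one above background on a single array, at 0.02.

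In the complement list 14 of 19 differences were above 0 with a median of 0.13, and 3 had an unadjusted p under 0.05. These were C1ra, a protease of the classical pathway (0.36 ± 0.11), Cfb, factor B of the alternative pathway (0.53 ± 0.18), and C1qa. The interleukin 1 and NF-κB list had a median of 0.02, with Il1rn, the natural antagonist of interleukin 1, at 0.33 ± 0.14 and its decoy receptor Il1r2 at 0.73 ± 0.32. The Il1rn value joins a probe well above background on all 10 arrays, at 0.68, with one above background on 0 of 10, at -0.02. Ptgs2, which makes prostaglandins, stood at -0.23 ± 0.10, and Nfkb2 at 0.29 ± 0.16. The lowest p in the protease list were those of Timp4 (0.36 ± 0.19) and Mmp19 (0.31 ± 0.17), and 0 of 21 members had an unadjusted p under 0.05. With slide as a fixed block Timp4 stood at -0.0293 and, in the interleukin 1 list, Nfkb2 at -0.0317.

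**Figure D3:**
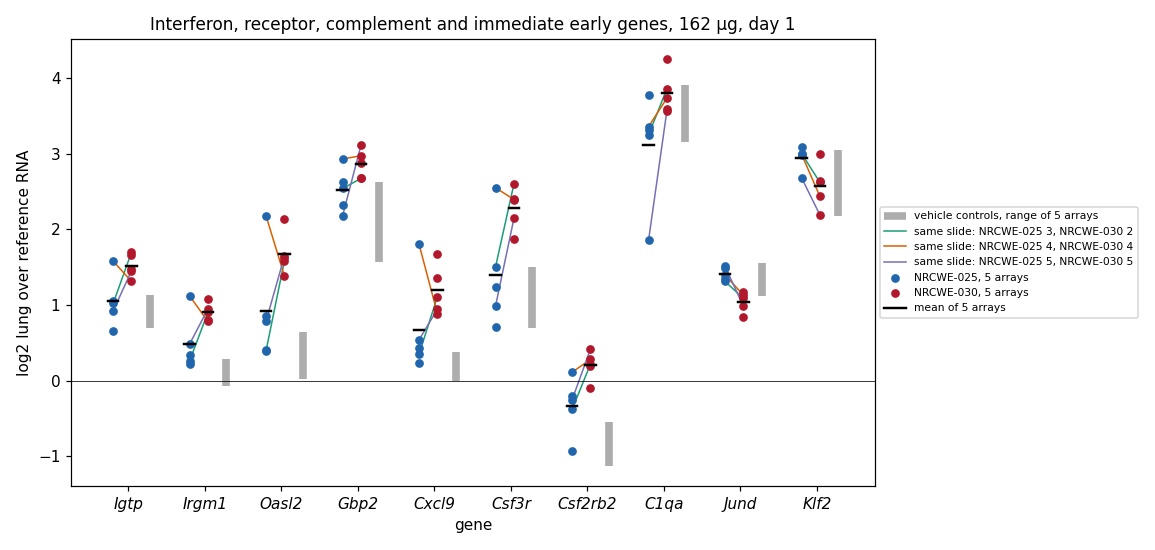
Log2 lung over reference RNA (vertical axis) of 10 genes on each NRCWE-025 array (blue) and NRCWE-030 array (red), with group means as black bars, the vehicle range of 5 mice as grey bars and lines between arrays of the same slide. For Igtp, Oasl2 and Cxcl9 a single NRCWE-025 array, replicate 4, lies with the NRCWE-030 arrays, while Jund has NRCWE-030 arrays between 0.84 and 1.18 and NRCWE-025 arrays between 1.31 and 1.51.

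Leading clock genes differed between the materials in the same direction within each shared slide. Arntl, the activator of the loop, was -1.49, -0.95, -1.47, -1.84 and -1.28 with NRCWE-030 and -0.36, -1.06, -0.35, -0.59 and -0.42 with NRCWE-025. Only NRCWE-025 replicate 2 crossed into the NRCWE-030 range. The difference was -0.85 (95% confidence interval -1.23 to -0.48, limma, adjusted p = 0.358). Its partner Clock stood at -0.27 ± 0.10 (SE). Per2, a repressor of the loop, was 0.64, 0.67, 0.97, 1.12 and 0.86 with NRCWE-030 and 0.20, 0.49, 0.42, 0.40 and 0.30 with NRCWE-025, so the groups did not overlap. Its difference was 0.49 (0.27 to 0.71, adjusted p = 0.366), and of its 2 probes 1 stood at 0.91 and the other at 0.07. Per1 had a difference of 0.58 ± 0.26, Per3 of 0.18 ± 0.13, Cry2 of 0.20 ± 0.09, Nr1d1 of -0.02 ± 0.09 and Nr1d2 of 0.28 ± 0.18. Per3 was well above background on only 2 of 5 NRCWE-025 arrays. Ciart, another repressor, was well above background on 5 of 5 NRCWE-030 arrays and on 0 of 5 NRCWE-025 arrays, so that its level there is only a bound and no fold is given. Its measured difference was 0.23 ± 0.09 (limma, adjusted p = 0.568).

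Among genes driven by the clock, 5 of 12 were higher with NRCWE-030 at an unadjusted p under 0.05, and 0 were called. Dbp, a transcription factor of the clock output, was 1.46, 1.38, 2.21, 2.11 and 1.95 with NRCWE-030 and 1.03, 1.80, 1.01, 0.88 and 0.54 with NRCWE-025, a difference of 0.77 (0.27 to 1.27, adjusted p = 0.491). Tef, a relative of Dbp, ran from 0.20 to 0.69 against -0.07 to 0.16 without overlap. Tspan4, a tetraspanin of the cell membrane, ran from 0.36 to 0.80 against -0.22 to 0.18, also without overlap (difference 0.63 ± 0.11). Cys1, a protein of cilia, and Usp2, a deubiquitinase, stood at 0.51 ± 0.21 and 0.22 ± 0.08. Hlf, the third factor of the Dbp family, had a difference of 0.39 ± 0.31. Within the slide of NRCWE-030 replicate 2 and NRCWE-025 replicate 3, Hlf and Cys1 went the other way, at -0.49 and -0.13.

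Of 19 core clock genes 9 had a difference above 0, and at an unadjusted p under 0.05, 3 were higher (Per1, Per2 and Ciart) and 2 were lower (Arntl and Clock). Of 12 output genes 9 were above 0, with a median of 0.24 and 5 higher at an unadjusted p under 0.05, Dbp, Tef, Usp2, Cys1 and Tspan4. Within the 3 shared slides Arntl stood at -0.60, -1.25 and -0.86, Per2 at 0.25, 0.72 and 0.55, Dbp at 0.37, 1.23 and 1.41 and Tspan4 at 0.57, 0.50 and 0.75. All 3 pairs had the same sign for 6 of 12 output genes upward and 1 downward, against 15.8% and 17.1% of all genes.

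The vehicle mice of day 1 spread more widely in these genes than the materials differed. Arntl ran from -1.70 to 0.82 in the 5 vehicle mice, Dbp from -0.69 to 2.26, Per1 from -1.24 to 1.49 and Tspan4 from -1.33 to 0.35. For each of the 31 clock and output genes the difference between the materials was smaller than the vehicle range, as it was for 97.7% of all genes.

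**Figure D4:**
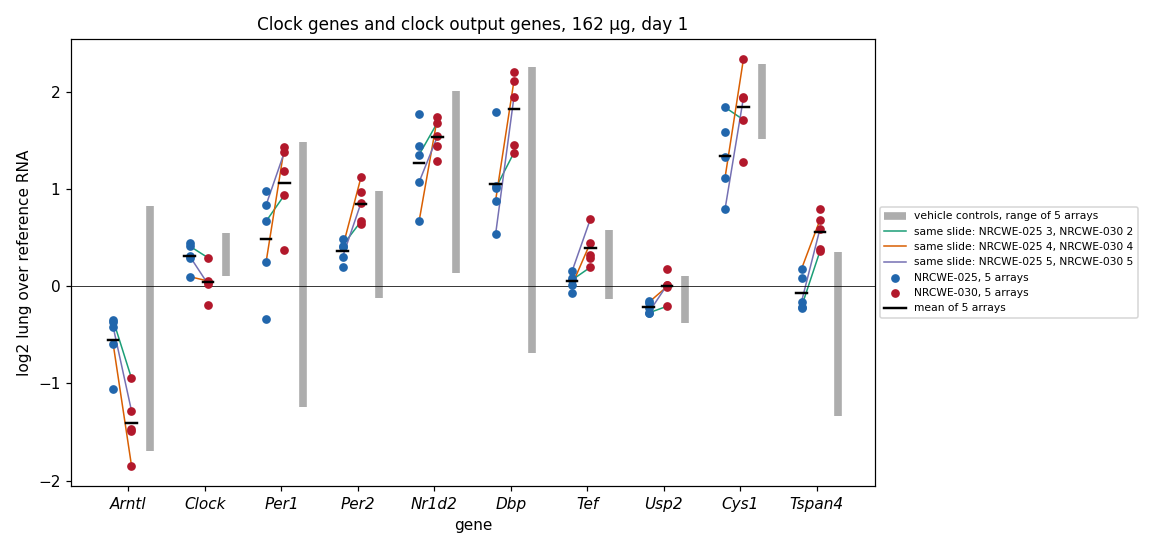
Log2 lung over reference RNA (vertical axis) of 10 clock and clock output genes on each NRCWE-025 array (blue) and NRCWE-030 array (red), with group means as black bars, the vehicle range of 5 mice as grey bars and lines that join arrays of the same slide. All lines of Arntl fall and all lines of Per2, Dbp and Tspan4 rise toward NRCWE-030, and the grey bar of Arntl, from -1.70 to 0.82, spans nearly all points of both materials.

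Promoters of 3 clock genes are shown for the elements through which the clock is known to act. The capitals mark CACGTG, the E-box bound by the Arntl and Clock pair, in Tspan4 and Tef, and AGGTCA, the core of the element bound by the ROR and Nr1d proteins, in Arntl. Both were searched on both strands. An E-box was in the promoter of 4 of 11 output genes and 4 of 14 core genes with a RefSeq promoter, against 8.09% of all genes. The AGGTCA core was in 4 of the 14 core genes and 2 of the 11 output genes, against 18.1% of all genes. The promoter of Dbp in the table held neither. Tspan4 and Arntl have further starts in the table whose promoters held no match, and Tef has a further start with an E-box of its own.
Tspan4, chr7:141476130-141476429, plus strand: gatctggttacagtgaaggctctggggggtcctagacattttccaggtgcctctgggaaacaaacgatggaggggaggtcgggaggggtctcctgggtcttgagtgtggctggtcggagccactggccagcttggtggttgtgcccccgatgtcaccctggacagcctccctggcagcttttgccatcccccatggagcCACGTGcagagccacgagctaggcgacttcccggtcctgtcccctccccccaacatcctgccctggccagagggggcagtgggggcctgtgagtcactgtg
Tef, chr15:81802423-81802722, plus strand: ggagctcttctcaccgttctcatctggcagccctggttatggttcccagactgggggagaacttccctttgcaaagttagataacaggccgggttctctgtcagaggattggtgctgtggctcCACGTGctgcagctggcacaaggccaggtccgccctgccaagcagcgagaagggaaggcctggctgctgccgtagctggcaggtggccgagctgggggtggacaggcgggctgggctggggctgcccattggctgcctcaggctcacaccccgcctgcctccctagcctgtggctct
Arntl, chr7:113207261-113207560, plus strand: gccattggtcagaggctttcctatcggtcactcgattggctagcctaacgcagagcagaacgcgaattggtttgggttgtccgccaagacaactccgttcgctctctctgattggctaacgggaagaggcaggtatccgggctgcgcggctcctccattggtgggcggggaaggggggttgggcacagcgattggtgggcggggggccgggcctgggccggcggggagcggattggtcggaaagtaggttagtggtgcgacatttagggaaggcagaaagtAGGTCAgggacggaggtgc

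Clock genes and Saa3 were looked at in mice of the other doses, which share no array with the comparison at 162 µg. These genes were chosen with earlier results of this series known, so the values are a description and not an independent check. Values are given side by side and were not tested. At 18 µg on day 1 the mean of Arntl was -0.72 with NRCWE-030 and 0.12 with NRCWE-025, and at 54 µg it was -1.13 and -0.10. Dbp stood at 1.81 and 0.24 at 18 µg and at 1.65 and 0.86 at 54 µg, and Tspan4 at 0.02 and -0.75 at 18 µg and 0.26 and -0.55 at 54 µg. Among the 31 clock genes the groups did not overlap for 7 at 18 µg (0.905% of all genes), for 4 at 54 µg (0.991%), for 3 at 162 µg (1.47%) and for 9 at 162 µg on day 28 (0.948%). Per2 and Tspan4 were among them in each of these comparisons, upward, and Arntl was among them, downward, in all but that of 162 µg on day 1. Saa3 had means of -1.90 with NRCWE-030 and -2.87 with NRCWE-025 at 18 µg and of 2.67 and -0.14 at 54 µg. At 54 µg the 5 arrays of each material again spread widely, from -0.39 to 4.98 and from -2.71 to 2.70. Other genes of the text did not all keep their direction at 18 and 54 µg. Timp1 differed by 0.41 and 1.19, whereas Igtp differed by -0.04 and -0.22 and C1qa by -0.65 and -0.11.

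The immediate early genes, which respond within minutes to stimuli of many kinds, were mostly lower with NRCWE-030 than with NRCWE-025. Jund, a subunit of the AP-1 factor, was 1.18, 1.09, 0.84, 1.13 and 0.98 with NRCWE-030 and 1.48, 1.34, 1.31, 1.40 and 1.51 with NRCWE-025, without overlap (difference -0.37 ± 0.08, adjusted p = 0.423). Egr1, a zinc finger factor, was -2.37, -2.78, -1.79, -1.89 and -1.73 against -0.36, -1.90, -1.19, -1.37 and -1.90. The highest of these 10 values was on NRCWE-025 replicate 1. Jun and Klf2, an endothelial transcription factor, stood at -0.26 ± 0.10 and -0.37 ± 0.13. Of 24 members 4 had a difference above 0, the median was -0.26, and Jund, Egr1, Jun and Klf2 were lower at an unadjusted p under 0.05 (2.79% of all genes). The list median was below 0 within each of the 3 shared slides, at -0.32, -0.23 and -0.12. The list mean ran from -0.46 to -0.15 in the vehicle mice, from -0.18 to -0.04 with NRCWE-030 and from -0.19 to 0.32 with NRCWE-025. The NRCWE-030 arrays thus lay within or above the vehicle range of the list. In the vehicle mice Egr1 ran from -2.66 to -1.88 and Jund from 1.12 to 1.56.

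Genes of mitosis had mostly lower and genes of DNA replication mostly higher values with NRCWE-030. The replication list changed sign with slide as a fixed block, which rests on the 3 shared slides. Plk1, a mitotic kinase, ran from -2.38 to -2.03 with NRCWE-030 and from -2.01 to -1.55 with NRCWE-025 (difference -0.37 ± 0.10), and Top2a, a topoisomerase of dividing cells, from -2.62 to -2.40 against -2.39 to -1.97. Both were without overlap. Over the mitosis list 2 of 29 differences were above 0, with a median of -0.19, and 5 were lower at an unadjusted p under 0.05. These were Plk1, Top2a, Ect2, Bub1 and Cenpa, and Cenpa was not well above background on any of the 10 arrays. In the replication list 22 of 29 were above 0, with a median of 0.10 and 3 higher at an unadjusted p under 0.05. Mcm6 and Mcm3, subunits of the replicative helicase, and Cdt1, which loads it, stood at 0.44 ± 0.14, 0.38 ± 0.17 and 0.42 ± 0.16, and Fen1, a nuclease of replication, at 0.30 ± 0.14. Within the shared slides the mitosis medians were -0.02, -0.19 and -0.29 and the replication medians 0.25, -0.19 and -0.17. With slide as a fixed block they were -0.118 and -0.0353, while Mcm6 remained positive within each shared slide (0.48, 0.20 and 0.07).

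Genes of glucocorticoid and fasting responses were split. Sgk1, a kinase induced by glucocorticoids, lay between -0.67 and 0.24 with NRCWE-030 and between -0.09 and 1.06 with NRCWE-025 (difference -0.65 ± 0.22). Cpt1a, which admits fatty acids to mitochondria, stood at 0.33 ± 0.12. Angptl4, an inhibitor of lipoprotein lipase, was 2.61, 2.15, 0.94, 0.98 and 0.66 against -0.05, 0.65, 0.66, 1.30 and -0.47 (difference 1.05 ± 0.41). Of 19 members 13 were above 0, with 3 higher (Cpt1a, Angptl4 and Per1) and 1 lower (Sgk1) at an unadjusted p under 0.05. Hba-a1, an alpha globin of red cells whose copy is nearly identical, stood at -0.37 ± 0.14, and Slc4a1, the anion exchanger of red cells, at -0.49 ± 0.25. In the red cell list 1 of 11 differences was above 0, and 3 were lower at an unadjusted p under 0.05, of which Klf1 and Rhd were not well above background on any of the 10 arrays. The red cell median of -0.10 became 0.02 with slide as a fixed block.

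Heart muscle genes and genes of the large airways had large differences, which for the heart genes came from NRCWE-030 replicates 1 and 3 and for the airway genes in part. Tnni3, cardiac troponin I, was 3.88, -0.14, 3.75, -0.16 and -0.01 on NRCWE-030 replicates 1 to 5 and between -0.55 and 0.36 on the NRCWE-025 arrays. Myh6, the cardiac myosin heavy chain, was 4.43 and 3.78 on those replicates and between 0.38 and 1.90 on the other 8 arrays. Nppa, the atrial natriuretic peptide, was 2.54 and 2.13 against 0.04 to 0.09. It was well above background on 3 of 5 NRCWE-030 and 2 of 5 NRCWE-025 arrays. The vehicle mice covered the same ground, with Tnni3 from -0.50 to 5.25. Of 23 heart genes 21 had a difference above 0, with a median of 0.55 and 3 higher at an unadjusted p under 0.05, Hspb7, Tnnc1 and Tcap. Without both replicates the median was -0.09. Tff2, a trefoil peptide of mucous cells, was 3.36 and 3.28 on the same replicates and between -0.18 and 1.31 on the others. Reg3g, an antibacterial lectin, was 6.68, 2.99, 5.55, 0.97 and 1.82 with NRCWE-030 and between 0.19 and 3.12 with NRCWE-025, the largest difference of all genes tested, at 2.17 (-0.03 to 4.37). The airway secretory genes Bpifa1 and Scgb3a1 stood at 2.05 ± 0.83 and 0.98 ± 0.45. Bpifa1 was 6.11, 4.33, 5.08, 1.81 and 3.18 with NRCWE-030 and 3.79, 1.66, 1.13, 3.39 and 0.30 with NRCWE-025, so replicates 1 and 3 were highest and replicate 2 was also above every NRCWE-025 array. Without both replicates Bpifa1 stood at 1.05, Reg3g at 0.495 and Scgb3a1 at 0.282. The airway median of 0.12 became -0.17 without both replicates.

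**Figure D5:**
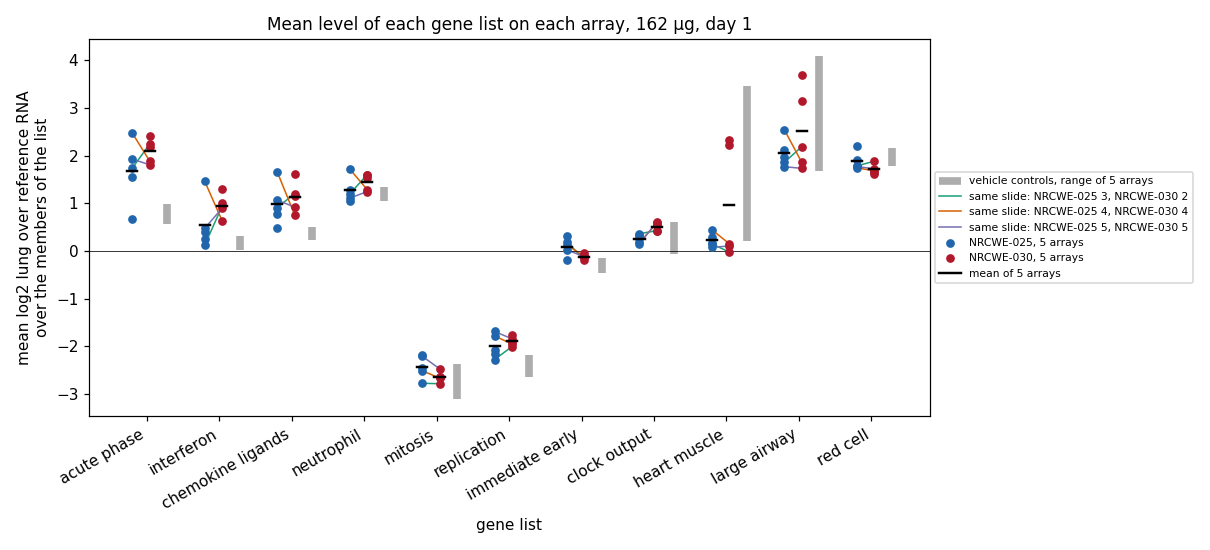
Mean log2 lung over reference RNA over the members of 11 gene lists (vertical axis) on each NRCWE-025 array (blue) and NRCWE-030 array (red), with group means as black bars, the vehicle range of 5 mice as grey bars and lines between arrays of the same slide. NRCWE-025 replicate 1 lies at the acute phase level of the vehicle mice (0.66), and NRCWE-030 replicates 1 and 3 stand apart in the heart muscle list (2.32 and 2.22).

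Most lists of other pathways and cell types had medians close to the value over all genes. The median difference was 0.03 for the interleukin 6 and STAT3 list, with 10 of 19 members above 0, -0.04 for targets of the oxidant sensor Nrf2 (12 of 26) and -0.03 for targets of p53 (10 of 25). It was 0.01 for metallothioneins and zinc transporters, 0.02 for cholesterol synthesis, 0.09 for heat shock proteins and -0.07 for cytochrome P450 and related enzymes. Alveolar type 2, type 1 and endothelial genes stood at medians of 0.01, -0.09 and -0.01, and matrix, B cell, T cell and antigen presentation genes at 0.02, -0.03, 0.05 and 0.12. The fat cell list had 16 of 17 differences above 0 and a median of 0.11, and the thymus list a median of -0.05. Lists from 8 of the biclusters that the study names were used, and its other biclusters were not analysed here. Of these 8 lists 7 had medians from -0.12 to 0.30. The 0.30 was that of bicluster 3, which the study relates to chemokine activity, with 12 of 16 differences above 0. Within the 3 shared slides its medians were 0.54, -0.90 and -0.18. Bicluster 8 stood at 0.18 with 12 of 15 above 0. The remaining list, at 0.55, holds Tnni3, Tnnc1, Myh6 and other muscle genes, and its mean was 2.88 and 2.83 on NRCWE-030 replicates 1 and 3 and 0.40 to 1.17 on the other 8 arrays. None of these lists had more than 3 genes at an unadjusted p under 0.05 in either direction.

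The long noncoding RNA Neat1, the scaffold of nuclear paraspeckles, was named after its values were seen. It was -0.69, 0.93, 0.90, 0.85 and 1.32 with NRCWE-030 and -0.54, -0.69, -0.29, -0.44 and -0.25 with NRCWE-025, and the vehicle mice lay between -0.87 and 0.04. Thus 4 of 5 NRCWE-030 mice were above all others and replicate 1 was with the lowest. The difference was 1.11 ± 0.30 (adjusted p = 0.472), and 1.44 ± 0.12 without NRCWE-030 replicate 1 (limma, adjusted p = 0.0028). That array is the one that runs against the other 4, so this p rests on leaving it out and is given as a description. With scan day as a fixed block the difference was 1.36 (limma, adjusted p = 0.0134). NRCWE-030 replicate 1 was the only one of the 10 arrays scanned on its day, so this block leaves it out of the estimate. The same holds for NRCWE-025 replicates 1 and 2, so this p does not rest on all 10 arrays. Fam193b, a gene of little known function that was likewise named after its values were seen, had its low NRCWE-030 array at -0.66 and the other 4 between -0.06 and 0.08, against -0.64 to -0.51 with NRCWE-025. Without NRCWE-030 replicate 1 its difference was 0.56 (limma, adjusted p = 0.0419), which likewise rests on leaving out the array that differs. Leaving out any other single array of the 10 called 0 genes.

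The spread among mice was larger with NRCWE-025 for 56.4% of genes. The standard deviation over 5 arrays had a median of 0.142 with NRCWE-030 and 0.157 with NRCWE-025, and it was over 2 times as large with NRCWE-025 for 2644 genes and under 0.5 times as large for 1472. NRCWE-025 replicate 4 had a mean correlation over genes of 0.944 with the other arrays of its own material and of 0.957 with the NRCWE-030 arrays. For NRCWE-025 replicate 1 these values were 0.950 and 0.938. Genes are not independent replicates, and these correlations only describe the arrays.

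Finally, the gap between NRCWE-030 and NRCWE-025 on day 1 was set against that on day 28 at the same dose, in a fit of 19 arrays with 4 on day 28 for NRCWE-025. This test of the change in the difference called 0 genes (0% of those tested) in limma, with a smallest adjusted p of 0.205 and 767 genes (4.11%) at an unadjusted p under 0.05. Dusp16 had the smallest p, with a difference of -0.35 on day 1 and 0.16 on day 28. Lime1 stood at 0.72 and -0.17, and Fance, a protein of the Fanconi DNA repair complex, at 0.33 and -0.13. Arntl stood at -0.85 and -1.33, Per2 at 0.49 and 0.94 and Dbp at 0.77 and 1.75. The change for Arntl was 0.48 with a 95% confidence interval from -0.06 to 1.01. It was -0.45 for Per2 (-0.75 to -0.15) and -0.98 for Dbp (-1.71 to -0.24), and none of these was called. Orm1 stood at 1.32 and 0.18, Csf3r at 0.88 and -0.19 and Igtp at 0.47 and -0.14.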

How the data were processed

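Gene expression had been measured in whole lung of 69 mice on Agilent 2-colour arrays, lung RNA in Cy5 and Universal Mouse Reference RNA in Cy3, without dye swaps. Per the file headers the authors extracted spots with Agilent Feature Extraction 11.0.1.1. The deposited scanner files hold median signal and background as linear intensity values per spot, outlier flags, and the scanner's own log10 ratio of Cy5 over Cy3. The deposited series matrix holds log2 values of the same arrays, whose processing and centring are not given in the sources used here (array medians near 0), and it served as an alternative only. RNA integrity numbers were above 7.0 per the labels.

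Here, intensities were background-corrected by normexp (offset 50) after outlying local backgrounds had been replaced by the median of the others on the array, then normalized by loess within arrays. Flagged spots were left out, and spots and probes were summarised by medians. Symbols came from RefSeq (GRCm38.p6, names only) for 27501 of 41174 probes (66.8%). Of 18757 genes 93 with a missing value were dropped, which left 18664. The comparison was a limma fit of the 10 arrays alone, two-sided, with Benjamini-Hochberg adjustment at 0.05, and all p-values and confidence intervals at 95% come from it. The change between days was a contrast in a fit of 19 arrays. Arrays are single mice and no replicate numbers are shared across groups in the labels, so numbers only name samples. The number of arrays limits the precision.

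The comparison and the gene lists were chosen with earlier results of these data known. Lists are described by counts and medians beside those over all genes and have no test. Named genes were the 10 of smallest p in each direction (rule for fewer than 10 calls). These were taken among genes well above background on 3 or more arrays of a group. Up to 4 of smallest p in each list, the core clock list and the 3 of smallest p for the change between days were added. So was a set that earlier results of these data had named (Saa1, Saa2, Saa3, Orm1, Orm2, Timp1, Tspan4, Per2, Arntl, Dbp). Others are marked in the text. Scripts were tested on simulated data. R 4.3.3, limma 3.58.1, data.table (1.17.8), Python 3.11.15 and matplotlib 3.10.9 were used.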

Additional observations from a re-analysis of the deposited data

Results flagged for a closer look

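Within each material the highest or lowest of 5 arrays was checked against the other 4 for 100 genes, and 9 of 200 groups had an array whose gap to its nearest neighbour was over 0.71 of the whole range. Chance flags about 1 in 20 groups. The cause of these values was not tested.

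With NRCWE-025, replicate 1 was low for Lcn2, at 0.67 against 3.72 to 4.58 on the other 4 arrays. Replicate 4 was high for Oasl2 (2.17 against 0.39 to 0.85), for Cxcl9 (1.80 against 0.23 to 0.54) and for Clec4e (-1.74 against -2.74 to -2.46). Replicate 5 was low for C1qa (1.86 against 3.25 to 3.77) and for Klf2 (2.68 against 2.98 to 3.08).

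With NRCWE-030, replicate 1 was low for Neat1 (-0.69 against 0.85 to 1.32), for Fam193b (-0.66 against -0.06 to 0.08) and for Slc26a11 (0.54 against 0.87 to 0.99), a transporter of anions.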

How the results depend on the processing

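The 0 genes called between the materials became 1 gene with local backgrounds as deposited (Clca3a2, 0.54), 1 gene with scan day as a fixed block (Neat1, 1.36), and 1 gene (Neat1, 1.48) with both NRCWE-030 arrays of high heart muscle genes left out, an alternative chosen after seeing the data. Leaving out single arrays gave 0 to 2 genes, the 2 being Neat1 and Fam193b without NRCWE-030 replicate 1. The scan day block also leaves that array out of the estimate, because no other array of the comparison was scanned on its day. The other alternatives gave 0, with 917 (scanner log ratio) to 2055 (each probe tested on its own) genes at an unadjusted p under 0.05. These alternatives were no background correction, quantile-normalized average intensity (which leaves log ratios as they are), series matrix values, scanner log ratio, mean of probes, each probe on its own, no dim genes, fits of 7 or 14 groups, slide as a random or fixed block, the 3 shared slides alone (the same estimate as the fixed slide block in the 10 arrays), array weights and an unmoderated test. Local backgrounds as deposited gave 2285 at an unadjusted p under 0.05. The share of these genes that was higher with NRCWE-030 was 64.4%, and 49.1% with slide as a fixed block. Slide as a fixed block in all arrays of day 1 gave 53.9%, scan day as a block 55.1% and no dim genes 69.5%. The 0 genes called for the change between days became 1 (Dusp16, -0.52) with slide as a random block, and leaving out single arrays gave 0 to 0. No analysis paired by replicate number was possible because the labels give no replicate numbers shared between the groups. The 3 shared slides pair 3 arrays of each material, and the fit on them called 0 genes, with 1875 at an unadjusted p under 0.05.

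Of the 100 genes followed through the alternatives, 88 kept their direction under every one. Apcs, Cenpa, Klf1, Rhd, Cyp26b1 and Adipoq, which the text also names, were not among them. With slide as a fixed block and in the 3 shared slides alone the difference was -0.0432 for Saa2, -0.0627 for Timp1, -0.0293 for Timp4, -0.11 for Cd177, -0.0317 for Nfkb2, -0.0136 for Nppa and -0.378 for Tff2. With scan day as a fixed block it was -0.0632 for Saa2 and -0.12 for Timp1. Local backgrounds as deposited gave 0.121 for Cxcl14 and 0.428 for Ppbp, whose main difference was -0.26. The scanner log ratio gave -0.0293 for Cry2 and 0.0627 for Pcdhga9. Nr1d1 was 0.0684 with backgrounds as deposited, 0.0402 without background correction, 0.0772 with the scanner log ratio, 0.0398 with slide as a fixed block in all arrays of day 1, 0.0219 with scan day as a block, and -0.0844 to 0.0161 without single arrays. Without both NRCWE-030 arrays of high heart muscle genes Nppa stood at -0.0145 and Tff2 at -0.0917. Blocking on slide or on scan day also turned the medians of the acute phase (-0.04 and -0.02), chemokine (-0.17), interleukin 1 (-0.03 and -0.01), replication (-0.04 and -0.05), airway (-0.25 and -0.08) and red cell (0.02 and 0.03) lists. In the comparison of the materials either block leaves NRCWE-030 replicate 1 and NRCWE-025 replicates 1 and 2 out of the estimate. The slide block also leaves out NRCWE-030 replicate 3. The cause of these changes was not tested. With 5 arrays a group, a difference as small as the median interval of 0.21 cannot be separated from 0 for most genes.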
